A study of Mus musculus with 4 samples.

Results

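Atp1b1, Atp1b2 and Atp1b3 encode the beta subunits of the sodium-potassium ATPase, and their levels, their mix and their isoforms were described across 6 cell classes of the mouse retina. The genes were taken by name as members of 1 family, by a rule that uses no measured value though earlier results of these data were known, and each was found by its Ensembl gene identifier: 3 of 13452 Ensembl genes, with 5 of 44325 isoforms. The donors were wild-type males of C57BL6/J, an inbred mouse strain, and papain-dissociated cells of their retinas gave 4 single-cell cDNA libraries that were read as nanopore long reads. Without any enrichment there were 2 libraries, 1 of them from postnatal day 40 and the other with no age in its label. The library labelled CD73 enrichment was from postnatal week 8, and the protocol text describes it as depletion of cells carrying CD73, a surface protein of photoreceptors. The library labelled CD90.2 enrichment was from postnatal month 4 and was made by positive selection of cells carrying CD90.2, a surface protein of neurons. The deposited columns pool these libraries by cell class, so a class is 1 sample, no difference was tested between classes, and intervals (95%) cover counting error only. How much each library gave to each column is not stated. Differences between classes can therefore not be told apart from differences of library, enrichment or age.

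The sodium-potassium ATPase moves sodium out of cells and potassium into them against their gradients, at the cost of ATP. Its alpha subunit carries out transport, and its beta subunit, a glycoprotein with a single membrane-spanning segment and a large extracellular part, is needed for the pump to fold and reach the cell surface. In photoreceptors the pump of the inner segment returns the sodium that enters the outer segment in darkness. The beta-2 protein is also known as an adhesion molecule on glia, and FXYD proteins are small membrane proteins that bind the pump and tune it.

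The 6 columns held from 3509890 counts (ganglion cells) to 55437340 counts (rods), and levels are given as counts per 1000000 counts of the column (CPM). A CPM is a share of the RNA read from a class, so more RNA of a gene per cell and more cells that express it cannot be told apart. Each of the 36 class markers, 6 per class, was highest in the column of its class. In the ganglion cell column 0 counts fell on the 6 rod markers, and in the other columns outside rods these markers summed to between 0.643% (amacrine cells) and 5.80% (Müller glia) of their rod level.

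Atp1b2 was the member with more than 1 isoform, and its 3 deposited models differed only by 2 very short exons, or microexons, of 27 and 21 nt. The exons are shown here because the difference between photoreceptors and the other classes lies in them. All coordinates are on mm10, and both exons lie on the minus strand of chromosome 11 inside the coding region of Atp1b2 (ENSMUSG00000041329.13). The 27-nt exon is at chr11:69602304-69602330 and the 21-nt exon at chr11:69601924-69601944. Below, the last 24 nt of the exon before and the first 24 nt of the exon after are in lower case and the microexons are in capitals, 5′ to 3′ on the transcript strand, joined from exon sequences of GENCODE M21 transcripts in the order of the deposited models.
Neither: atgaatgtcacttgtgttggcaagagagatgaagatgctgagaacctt
27-nt exon only: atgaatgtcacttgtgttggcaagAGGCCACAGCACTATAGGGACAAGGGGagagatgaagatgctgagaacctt
Both microexons: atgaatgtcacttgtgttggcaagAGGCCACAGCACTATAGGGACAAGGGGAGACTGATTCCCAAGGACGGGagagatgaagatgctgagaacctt

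Both insertions kept the reading frame. The annotated coding sequence of Atp1b2 (ENSMUST00000047889.12) runs over 7 exons and 290 codons before the stop, and the insertion point follows codon 203 at a codon boundary, in the stretch that encodes the extracellular part. With the 27-nt exon there were 9 more codons (299 in all), and with both exons 16 more (306 in all), with 0 stop codons in frame in either.

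The surrounding sequence of each exon could be read because 1 annotated non-coding transcript of the gene retains the whole interval of 801 nt between the neighbouring exons. The introns are 94 nt before the 27-nt exon, 359 nt between the microexons and 300 nt after the 21-nt exon. Each microexon is shown in capitals with 60 nt of the intron before it and 100 nt of the intron after it, at chr11:69602204-69602390 and chr11:69601824-69602004, minus strand.
27-nt exon: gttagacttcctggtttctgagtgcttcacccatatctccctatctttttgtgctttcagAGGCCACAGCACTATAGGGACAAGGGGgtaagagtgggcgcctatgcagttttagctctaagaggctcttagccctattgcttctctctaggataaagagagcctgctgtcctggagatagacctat
21-nt exon: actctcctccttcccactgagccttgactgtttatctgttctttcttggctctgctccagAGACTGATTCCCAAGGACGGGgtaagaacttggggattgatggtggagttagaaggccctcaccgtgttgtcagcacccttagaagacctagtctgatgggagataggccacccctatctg

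Both exons are bounded by ag before and gt after, and of the 20 nt that end 3 nt before each exon 85% and 80% were C or T. The motif TAG, the core of the sites bound by Musashi proteins, occurred 4 times in the 100 nt after each exon on the transcript strand. Among 11445 windows of the same length, taken after the 5′ splice site of annotated introns that another transcript retains, 68.8% held it at least 1 time and 3.75% at least 4 times. On the other strand (CTA) there were 5 and 2 matches, a count reached by 0.577% and 27.5% of windows. The motif TGC, known from sites of the microexon regulator SRRM4, occurred 2 times in the 60 nt before the 27-nt exon and 1 time before the 21-nt exon, against 65.8% of 11548 windows with at least 1 match and 29.9% with at least 2. Its reverse complement GCA occurred 0 times before either exon and in 51.9% of windows. TAG and CTA matches can overlap by 2 letters, and a match is a description of letters and not a binding site.

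**Figure D1:**
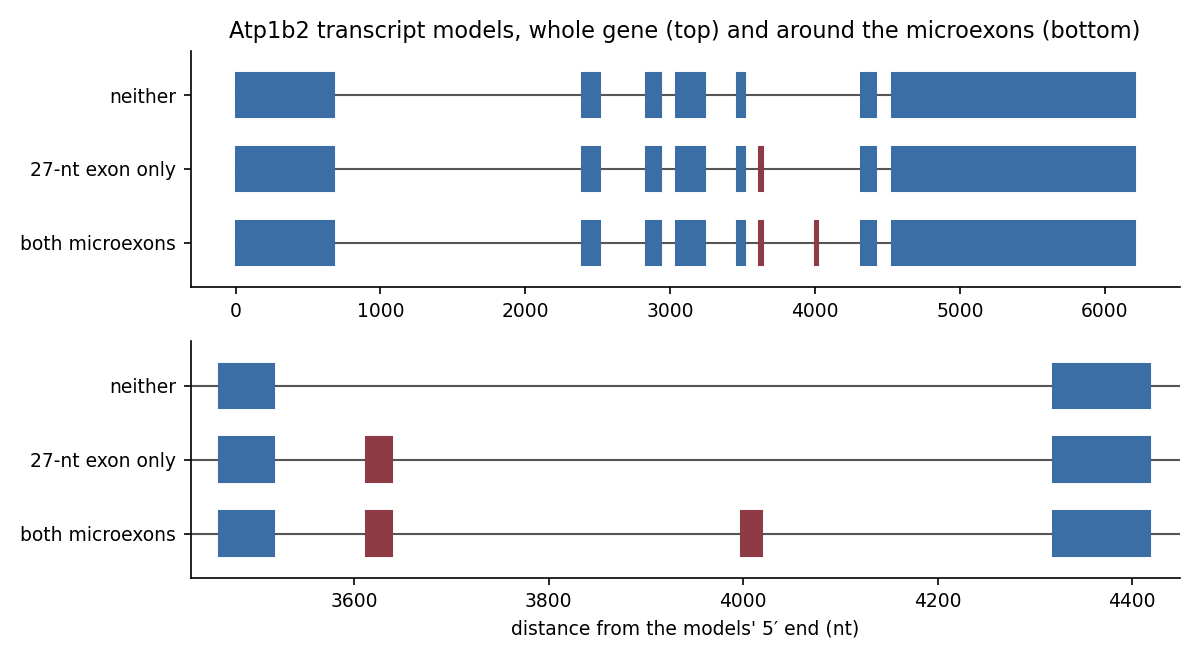
Exons (blocks) of the 3 Atp1b2 models by distance in nt from their 5′ end, over the whole gene and around the microexons (dark red). The models share 7 exons, and the microexons lie between the fifth and the sixth of them.

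The classes differed in which of these Atp1b2 isoforms they held. In rods, 4578 of 4692 Atp1b2 counts (97.6%, exact Clopper-Pearson interval 97.1 to 98.0%) were on the isoform with both microexons. In cones it was 656 of 698 counts (94.0%, 92.0 to 95.6%). Outside photoreceptors the same isoform held 98 of 970 counts in bipolar cells (10.1%, 8.28 to 12.2%), 3 of 43 in Müller glia (6.98%, 1.46 to 19.1%) and 30 of 6124 in amacrine cells (0.490%, 0.331 to 0.699%). In ganglion cells it had 0 of 110 counts (0%, 0 to 3.30%), where the 3 counts allowed for a count of 0 are 2.73%.

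The isoform without a microexon, which is the annotated one, had the complementary pattern. It held 5903 of 6124 counts in amacrine cells (96.4%), 109 of 110 in ganglion cells (99.1%), 40 of 43 in Müller glia (93.0%) and 680 of 970 in bipolar cells (70.1%, 67.1 to 73.0%). In rods it had 48 counts (1.02%, 0.755 to 1.35%) and in cones 6 counts (0.860%, 0.316 to 1.86%). The 2 photoreceptor classes thus stood on one side and the other 4 classes on the other, with no interval shared between the sides.

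Bipolar cells were the intermediate class. The isoform with the 27-nt exon alone reached 192 of 970 counts there (19.8%, 17.3 to 22.4%), its highest share in any class. It held 36 of 698 counts in cones (5.16%, 3.64 to 7.07%), 191 of 6124 in amacrine cells (3.12%, 2.70 to 3.59%), 66 of 4692 in rods (1.41%, 1.09 to 1.79%), 1 of 110 in ganglion cells (0.909%) and 0 of 43 in Müller glia. No model held the 21-nt exon without the 27-nt exon. Among counts with the 27-nt exon, the 21-nt exon was also present in 4578 of 4644 in rods (98.6%, 98.2 to 98.9%), 656 of 692 in cones (94.8%, 92.9 to 96.3%), 98 of 290 in bipolar cells (33.8%, 28.4 to 39.6%) and 30 of 221 in amacrine cells (13.6%, 9.35 to 18.8%). The 27-nt exon by itself was in 99.0% of Atp1b2 counts in rods, 99.1% in cones, 29.9% in bipolar cells and 3.61% in amacrine cells.

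**Figure D2:**
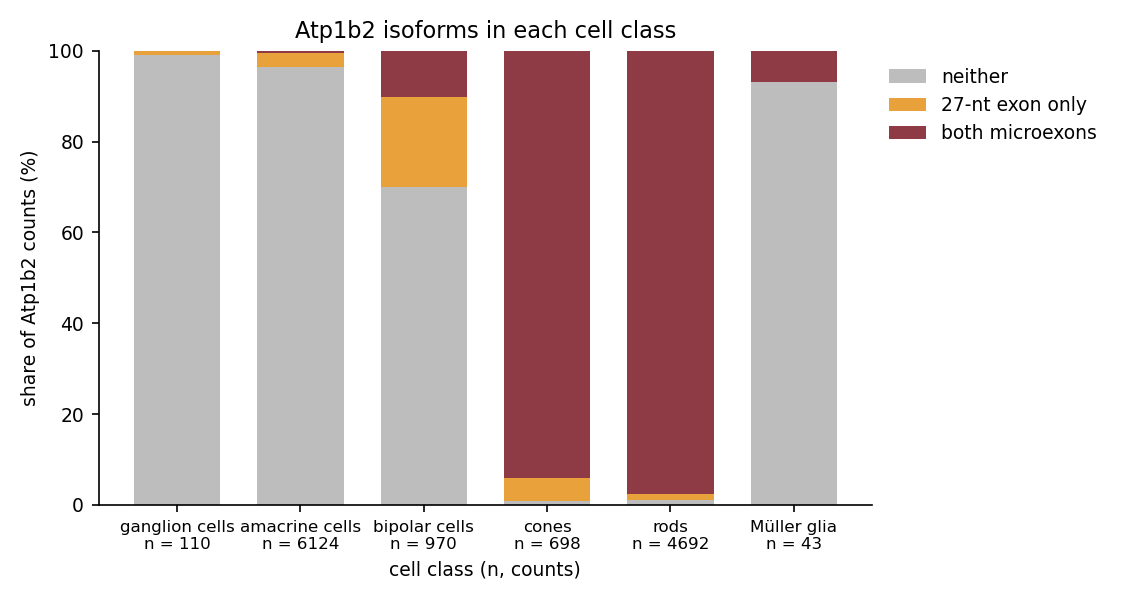
Share of Atp1b2 counts (percent) on each of its 3 isoforms in each class, with the number of Atp1b2 counts under each bar. The isoform with both microexons fills 97.6% of the rod bar and 94.0% of the cone bar, and bipolar cells hold all 3 isoforms.

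The rod markers counted in the other columns were set beside these values. The isoform with both microexons was at 82.6 CPM in rods and 89.8 CPM in cones, so cones were at 109% of the rod level, where the 6 rod markers were at 4.14%. In bipolar cells it was at 3.38 CPM, or 4.09% of the rod level, and the rod markers at 1.73%. In amacrine cells it was at 0.753% against 0.643% for the rod markers, and in Müller glia at 0.592% against 5.80%. The isoform was thus near the rod markers in amacrine cells, on 30 counts, and below them in Müller glia, on 3 counts. The 6 cone markers were at 0.813% of their cone level in bipolar cells, 0.577% in Müller glia and 0.0604% in amacrine cells. The part of rod or cone RNA in these small shares was not tested. The isoform without microexons was at 122 CPM in amacrine cells, 31.1 CPM in ganglion cells, 23.4 CPM in bipolar cells and 6.52 CPM in Müller glia. Relative to amacrine cells, bipolar cells had 19.2% of it, where the 6 amacrine markers were at 0.847%, while rods had 0.708% with those markers at 2.31% and cones 0.671% with them at 0.704%.

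A dominant isoform switch required 20 or more counts of a gene in both classes of a pair, a different most abundant isoform in them, and a gap of 50 or more percentage points in a leading isoform's share. Atp1b2 met this rule of size in 8 of 15 pairs, each of them a photoreceptor class against another class, always between the isoform with both microexons and the one with neither. The difference, given as the larger gap of the 2 leading isoforms, was 98.2 points for cones and ganglion cells, where 11.7% of 2623 comparable genes were switched. It was 98.1 points for rods and ganglion cells, where 13.3% were. It was 97.1 points for rods and amacrine cells (10.8% of genes switched) and 95.5 points for cones and amacrine cells (8.05%). Against Müller glia it was 92.2 points in cones (4.29%) and 92.0 points in rods (4.54%). Against bipolar cells it was 87.5 points in rods (4.32%) and 83.9 points in cones (2.26%). For the isoform with both microexons the gap was 94.0 points for cones and ganglion cells, and 83.9 to 97.6 points over the 8 pairs. With a minimum of 100 counts 6 pairs met the rule, since Müller glia had 43 Atp1b2 counts.

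Atp1b2 was not switched in the other 7 pairs. For cones and rods, where the rule called 1.18% of genes, the same isoform led. Neither was it switched among the other classes, where the share of genes called was 9.23% for amacrine and bipolar cells, 9.26% for amacrine cells and Müller glia and 8.19% for amacrine and ganglion cells. For bipolar cells it was 4.53% with Müller glia and 12.7% with ganglion cells, and for Müller glia and ganglion cells 13.1%. Of 2420 genes with at least 2 isoforms and 20 counts in every class, 6 (0.248%) were switched in all 8 pairs of a photoreceptor class with another class, namely Atp1b2, Bin1, Gpm6b, Hk1, Ptms and Uckl1. That count was set up after the Atp1b2 values were seen.

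The same comparison was made exon by exon, over internal exons that other models of the gene skip, with at least 20 spanning counts in both classes. The inclusion level differed by at least 50 points between rods and amacrine cells in 4.92% of 8918 such exons, and in 11.9% of the 176 exons of at most 27 nt. For cones and ganglion cells it did so in 6.05% of 2845 exons and in 13.7% of 73 exons of at most 27 nt. Both Atp1b2 exons were past this size in each comparison. A stricter rule, written after these values were seen, asked that inclusion in rods and in cones exceed that of every other class by at least 50 points. It was met by 2 of 2528 exons with enough counts in all classes (0.0791%) and by 2 of the 68 of at most 27 nt (2.94%), and both were the exons of Atp1b2.

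Both isoforms with microexons count as unannotated, because neither is named by an Ensembl transcript, the rule used for all genes. Their full chains of introns are also not in GENCODE M21. All 8 introns of the isoform with both exons are annotated one by one, and 6 of the 7 introns of the isoform with the 27-nt exon alone. The unannotated share of Atp1b2 was thus 99.1% in cones and 99.0% in rods, where unannotated isoforms of all Ensembl genes held 5.43% and 6.92% of counts. It was 29.9% in bipolar cells against 4.33%, 3.61% in amacrine cells against 4.97%, 6.98% in Müller glia against 5.16% and 0.909% in ganglion cells against 4.17%. By counts the isoform with both exons ranked 78 among 10973 unannotated isoforms seen in cones and 90 among 21507 in rods. All 3 Atp1b2 models share their ends, chr11:69599736-69605942, and measure 2955, 2982 and 3003 nt.

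Atp1b1 and Atp1b3 each had 1 isoform, so no isoform comparison was possible for them. The model of Atp1b1 (ENSMUSG00000026576.12, chr1:164437109-164458022, minus strand) has 6 exons and 2247 nt and starts 333 nt downstream of the annotated start. Atp1b3 (ENSMUSG00000032412.8, chr9:96332655-96364334, minus strand) has 7 exons and 1886 nt and starts 108 nt downstream of the annotated start. The coding sequences are 912 nt for Atp1b1, 870 nt for Atp1b2 and 834 nt for Atp1b3. In global alignments of these reference sequences, 61.9% of aligned bases were identical between Atp1b1 and Atp1b2, 59.9% between Atp1b2 and Atp1b3 and 59.2% between Atp1b1 and Atp1b3. The second coding exon is 129 nt long in all 3 genes, and the fourth is 185 nt in Atp1b1 and Atp1b3 and 206 nt in Atp1b2. The microexons follow the fifth coding exon of Atp1b2, which is 57 nt long.

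The level of Atp1b1 was high in ganglion and amacrine cells and low in every other class. It was 368 CPM in ganglion cells (1291 counts, exact Poisson interval 348 to 388 CPM) and 281 CPM in amacrine cells (13549 counts, 276 to 286). It was then 12.9 CPM in Müller glia (79 counts), 9.16 CPM in rods (508 counts), 3.83 CPM in cones (28 counts) and 3.07 CPM in bipolar cells (89 counts). Ganglion cells were 1.31-fold above amacrine cells and 120-fold above bipolar cells (interval of the fold 96.7 to 149). Only cones and bipolar cells had overlapping intervals as neighbours in this order. Ganglion cell markers were at 2.23% of their own column's level in amacrine cells, where Atp1b1 was at 76.3% of its ganglion cell level. Amacrine markers were at 4.60% of their own column's level in ganglion cells, where Atp1b1 was at 131% of its amacrine level. The part of RNA from the other class in these levels was not tested.

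Atp1b3 was highest in Müller glia, at 119 CPM (727 counts, 110 to 127 CPM). Amacrine cells followed with 31.1 CPM (1502 counts) and ganglion cells with 30.8 CPM (108 counts), whose intervals overlapped. Rods had 7.25 CPM (402 counts) and cones 6.02 CPM (44 counts), also with overlapping intervals, and bipolar cells 2.72 CPM (79 counts). Müller glia were 3.81-fold above amacrine cells and 43.5-fold above bipolar cells (34.5 to 54.9). The Müller glia column also held counts on genes listed as markers of cells without a column of their own. The 6 pigment epithelium markers summed to 9480 CPM there and to between 2.85 and 65.9 CPM elsewhere, with Best1 at 0 in Müller glia. The 5 microglial markers summed to 1219 CPM there, with none at 0, and to between 8.83 and 561 CPM elsewhere. The part of such cells in the Atp1b3 level was not tested, nor was the part of Müller glia's own RNA in these sums.

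Atp1b2 was spread over more classes than the other members. It was 127 CPM in amacrine cells (6124 counts, 124 to 130 CPM), 95.5 CPM in cones (698 counts, 88.6 to 103) and 84.6 CPM in rods (4692 counts, 82.2 to 87.1). Bipolar cells had 33.4 CPM (970 counts) and ganglion cells 31.3 CPM (110 counts), with overlapping intervals, and Müller glia 7.01 CPM (43 counts, 5.07 to 9.44). Amacrine cells were 1.33-fold above cones and 18.1-fold above Müller glia (13.4 to 24.4). Counts were also scaled to all counts on models within 20% of the gene's length, a choice made after the data were seen. On that scale amacrine cells and cones were near level, with 5398 Atp1b2 counts per 1000000 such counts in cones and 5351 in amacrine cells. The cone value rests on 698 counts and no interval was computed on that scale, so these classes are not ordered there. Scaled by the median of ratios, amacrine cells were at 111 and cones at 105 CPM. All 3 members had at least 10-fold between their highest and lowest class, as did 37.6% of 5226 Ensembl genes with at least 1000 counts. The median of those genes was 5.50-fold, and 71.5%, 83.4% and 91.6% of them had a smaller range than Atp1b2, Atp1b3 and Atp1b1.

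**Figure D3:**
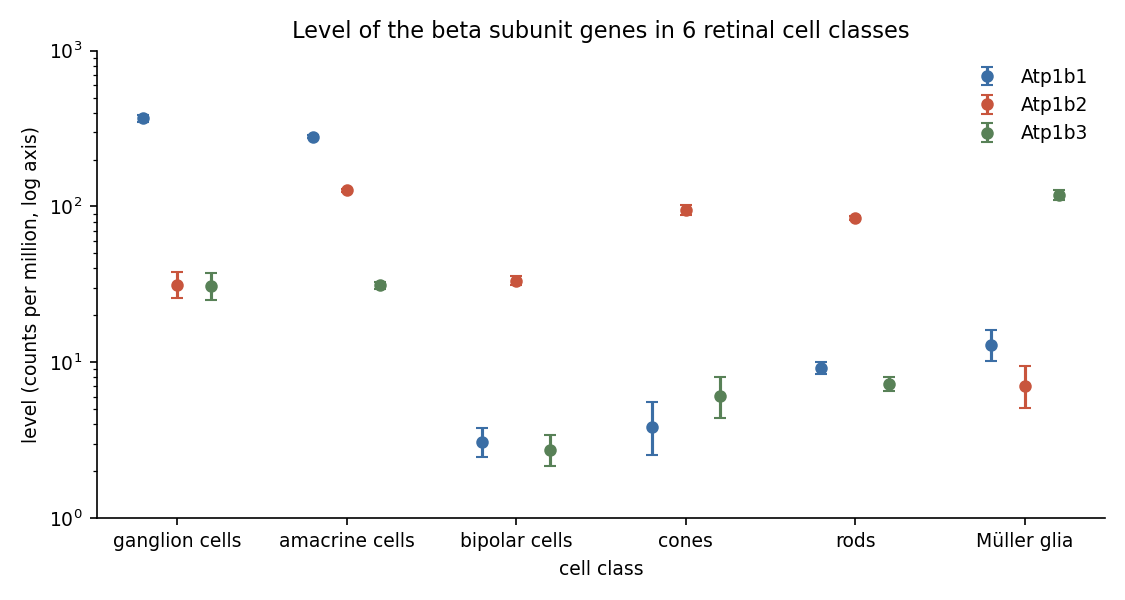
Level (CPM, log axis) of the 3 beta subunit genes in 6 cell classes, with 1 pooled value per class and exact Poisson 95% intervals for counting error as bars. Atp1b1 is highest in ganglion and amacrine cells (368 and 281 CPM) and Atp1b3 in Müller glia (119 CPM), while Atp1b2 is high in amacrine cells, cones and rods (127, 95.5 and 84.6 CPM).

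The mix of beta subunits within a class followed from these levels, and each class had 1 gene with over 50% of its beta subunit counts. Atp1b1 led in ganglion cells with 1291 of 1509 counts (85.6%, 83.7 to 87.3%) and in amacrine cells with 13549 of 21175 counts (64.0%, 63.3 to 64.6%). Atp1b2 led in cones with 698 of 770 counts (90.6%, 88.4 to 92.6%), in bipolar cells with 970 of 1138 (85.2%, 83.0 to 87.2%) and in rods with 4692 of 5602 (83.8%, 82.8 to 84.7%). Atp1b3 led in Müller glia with 727 of 849 counts (85.6%, 83.1 to 87.9%). In the classes where it did not lead, Atp1b3 had shares from 5.71% in cones to 7.18% in rods.

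The models differ in length, so the mix was also taken per kilobase of model. If 1 long read stands for 1 cDNA, counts do not rise with model length, and division by length is then no correction. Models of 3000 nt or more held from 0.300% (Müller glia) to 0.639% (rods) of counts, and which scale fits these counts was not tested. Per kilobase the leading gene was the same in all 6 classes, with 85.9% for Atp1b1 in ganglion cells and 67.8% in amacrine cells. On that scale Atp1b2 had 86.7% in cones, 80.1% in bipolar cells and 78.1% in rods, and Atp1b3 had 88.6% in Müller glia. When each gene was instead scaled to all counts on models within 20% of its own length, a choice made after the data were seen, Atp1b2 led in amacrine cells with 59.1% and Atp1b1 had 38.7%. The leading gene of the other 5 classes was the same on that scale, and the shares of Atp1b3 outside Müller glia ran from 0.692% in cones to 3.01% in ganglion cells. These scalings moved Atp1b2 in amacrine cells opposite ways, from 28.9% of counts to 23.3% per kilobase and to 59.1% by like length.

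**Figure D4:**
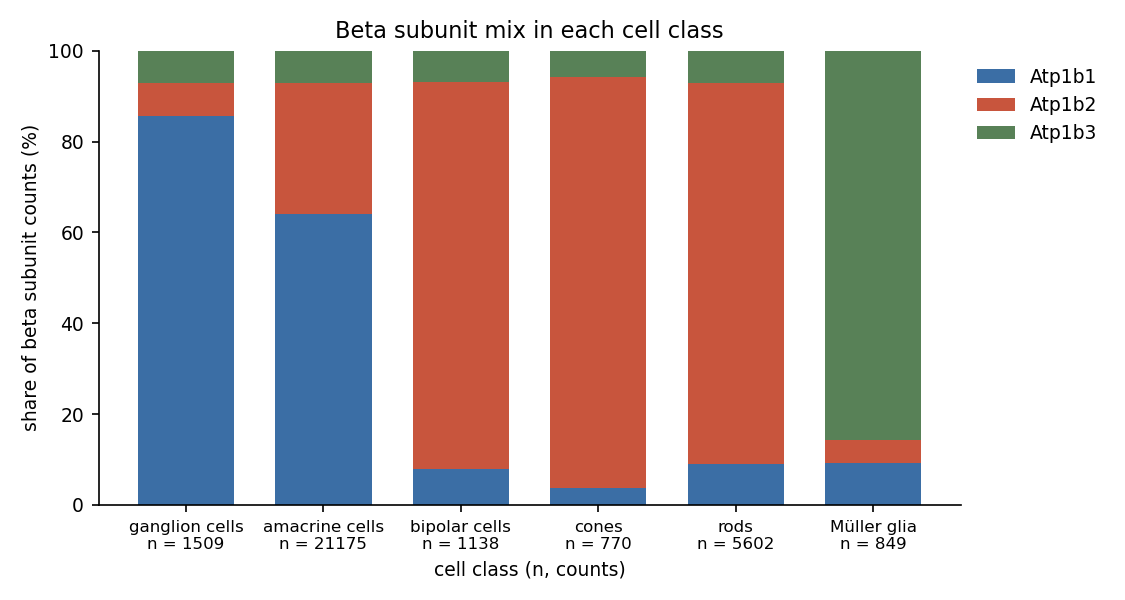
Share (percent) of Atp1b1, Atp1b2 and Atp1b3 in the beta subunit counts of each class, with the number of those counts under each bar. Atp1b1 has the largest share in ganglion and amacrine cells, Atp1b2 in bipolar cells, cones and rods, and Atp1b3 in Müller glia.

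Of 27 genes listed for the pump, its partners and related pumps, 20 were in the table and 12 had at least 10 CPM in a class. Of the 20, 8 were highest in Müller glia, where 19.4% of all Ensembl genes were highest, and 5 in ganglion cells, where 13.2% were. Some of these rest on few counts: Atp2a1 and Atp2b4 had 9 each in Müller glia, and Nkain1 had 19 in ganglion cells. The Müller glia group included 4 FXYD genes. Fxyd6 was at 1187 CPM in Müller glia, 146 CPM in amacrine cells and between 14.4 and 43.1 CPM in the remaining classes. Fxyd1, which encodes phospholemman, was at 112 CPM in Müller glia and at most 3.68 CPM elsewhere. Fxyd3 was at 73.5 CPM and Fxyd5 at 42.7 CPM in Müller glia, with at most 2.55 and 2.34 CPM elsewhere. The pigment epithelium and microglial markers in this column (9480 and 1219 CPM) stand beside these levels too. So do markers of pericytes (3 of 4 listed, 257 CPM there and at most 11.9 CPM elsewhere). Astrocyte markers do as well (3 of 4 listed, 111 CPM there and at most 4.07 CPM elsewhere). The part of such cells was not tested, nor was the part of Müller glia's own RNA in these sums.

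Genes highest in ganglion cells included 2 other FXYD members. Fxyd2, the gamma subunit, was at 21.7 CPM there (76 counts), with 11.7 CPM for amacrine cells and 11.4 CPM for Müller glia. Fxyd7 was at 16.5 CPM in ganglion cells (58 counts) and at most 0.652 CPM elsewhere. Of the genes named for interaction with the pump, Nkain4 was at 64.7 CPM in ganglion cells, with 19.8 CPM for amacrine cells and 17.3 CPM for Müller glia, and Nkain3 at 11.7 CPM in ganglion cells and 6.88 CPM in amacrine cells.

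**Figure D5:**
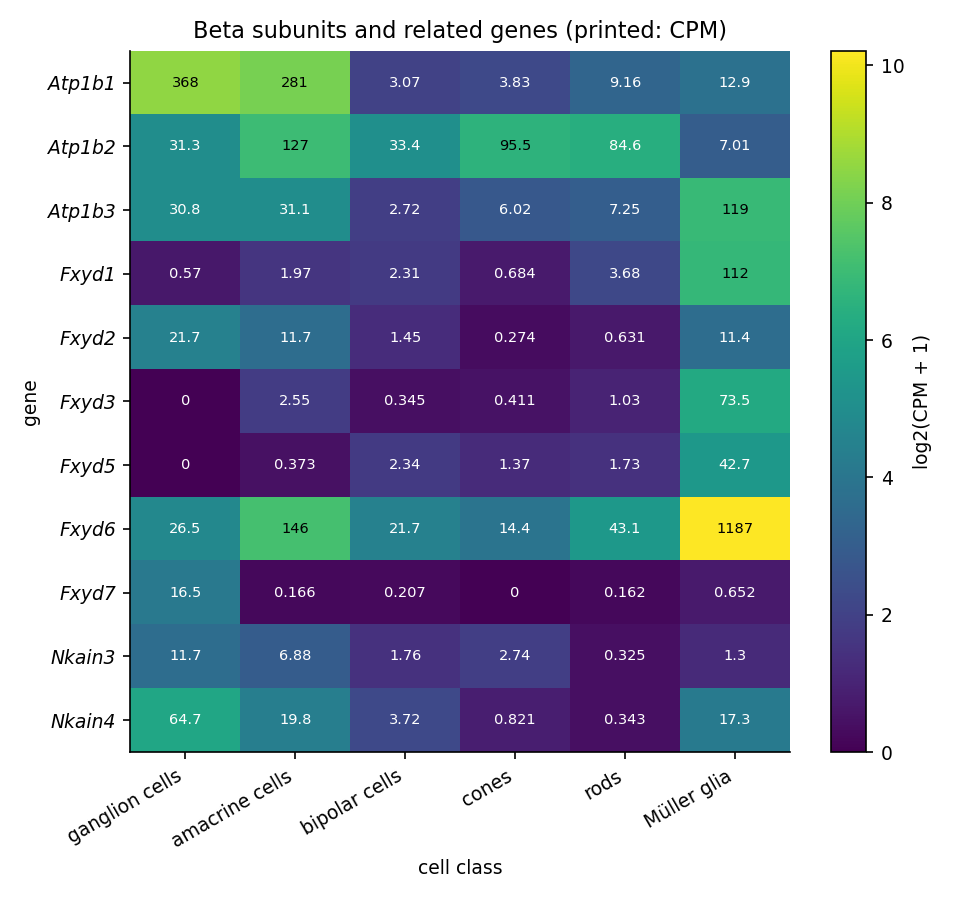
Level of the 3 beta subunit genes and of 8 FXYD and Nkain genes with at least 10 CPM in a class, coloured by log2(CPM + 1), with the CPM printed in each cell. Atp1b3, Fxyd1, Fxyd3, Fxyd5 and Fxyd6 are highest in the Müller glia column, and Atp1b1, Fxyd2, Fxyd7, Nkain3 and Nkain4 in the ganglion cell column.

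Genes with the most similar pattern over the 6 classes were listed for each member by Pearson correlation of log2(CPM + 1), among 5226 genes with at least 1000 counts. These are descriptions over 6 points that share libraries and differ in depth. For Atp1b1 they included Rpl41 (r = 0.998), Prr13 (0.996), Cdo1 (0.992) and Srp9 (0.992). For Atp1b2 they were Tmem167 (0.983), Vmac (0.982), Pop7 (0.979), Ehbp1 (0.974) and Mrps2 (0.970). For Atp1b3 they were Jtb (0.988), Pcbd2 (0.987), Polr1d (0.967), Ucp2 (0.964) and Pax6os1 (0.963). The correlation ignores the size of a difference, and some of these genes had narrow ranges. Rpl41 ran from 1965 to 2937 CPM, Pop7 from 132 to 246 CPM and Jtb from 225 to 390 CPM. Others had wide ranges, with Cdo1 from 0.724 to 30.8 CPM, Mrps2 from 0.326 to 12.4 CPM and Ucp2 from 2.19 to 126 CPM. Pax6os1 is antisense to Pax6, and whether counting used strand is not given in the sources used here. Ucp2, a mitochondrial carrier, was at 126 CPM in Müller glia and 44.4 CPM in amacrine cells, its next highest class. Among the members themselves r was 0.54 for Atp1b1 and Atp1b3, 0.13 for Atp1b1 and Atp1b2 and -0.56 for Atp1b2 and Atp1b3.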

How the data were processed

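Nanopore reads were taken from 10x Genomics single-cell cDNA, per the labels' protocols. The authors deposited whole-number counts per isoform in 6 columns named by cell class. Transcript coordinates come from the deposited models, which name FLAIR as their source, per the file contents, and the build mm10 is named in the submitters' processing notes. Of 122601 splice junctions in the models, 115691 (94.4%) had identical coordinates in GENCODE M21. The filters, the cell typing and whether counts are reads or molecules are not given in the sources used here. The number of columns left unused was 0.

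Isoform counts were summed per Ensembl gene and scaled to a column total of 1000000. With 1 pooled column per class, no test was run. Levels carry exact Poisson intervals, folds log-normal ones and shares exact Clopper-Pearson ones, all at 95%. A count of 0 allows up to 3 counts. Isoforms named by an Ensembl transcript were called annotated. Named genes were the 3 members, the 5 genes most correlated with each, listed pathway genes with at least 10 CPM and isoforms with at least 5% of a member. The members and lists were chosen with earlier results of these data known. Alternatives used edgeR 4.0.16 and DESeq2 1.42.0 for scaling only, in R 4.3.3, and the rest was done with Python 3.11.15, pandas 2.3.3, SciPy 1.17.1 and Biopython 1.88. Alternatives were 2 other scalings, annotated isoforms only, minimums on counts, lengths, summed introns and other correlation settings. Some genes met by this rule are not reported here.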

Additional observations from a re-analysis of the deposited data

How the results depend on the processing

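No library could be left out, since the columns do not separate them. No paired analysis was possible because libraries are pooled within each column. The Atp1b2 isoform shares were unchanged under every alternative run on them. With only 3 isoforms, all spliced, well covered and different in their introns, those settings could not change these shares. The unannotated shares were also unchanged, and a minimum of 10 counts could not change them. Counting parts of annotated chains as annotated left them the same too. The count of switched pairs was 8 in every setting but a minimum of 100 counts, where it was 6. Scaling by the median of ratios moved column levels by -0.20 (amacrine cells) to 0.25 (Müller glia) on the log2 scale and gave a 13.3-fold range for Atp1b2 from amacrine cells to Müller glia. Scaling to models of like length, added after the data were seen, placed cones first for Atp1b2. Per kilobase, the leading gene's share moved to 88.6% in Müller glia, 67.8% in amacrine cells, 80.1% in bipolar cells, 78.1% in rods and 86.7% in cones. With annotated isoforms only, which drops the isoforms with microexons by construction, Atp1b1 had 64.7% in amacrine cells, and Atp1b2 5.01% in rods, 7.69% in cones and 80.2% in bipolar cells. Scaled to models of like length, Atp1b1 had 38.7% in amacrine cells and 71.9% in ganglion cells, Atp1b2 95.9% in rods, 98.3% in cones and 96.6% in bipolar cells, and Atp1b3 59.1% in Müller glia. Ganglion cells came before amacrine cells for Atp1b3 under both other scalings, within overlapping intervals. Over all genes, 1828 of 7317 were switched in at least 1 pair, against 2900 of 8182 with a minimum of 10 counts, 486 of 4739 with a minimum of 100 counts and 2811 with a gap of 25 points. The most similar genes depended on the measure: Spearman correlation kept 0, 0 and 1 of 5 for Atp1b1, Atp1b2 and Atp1b3. Apart from the causes named, the cause was not tested. The least covered values rest on 43 Atp1b2 counts in Müller glia and 110 in ganglion cells.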
